A study of Mus musculus with 5 samples.

Results

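Messenger RNAs that are carried into axons and translated there for signalling, nuclear import or survival were followed in precipitates of SMN, the survival of motor neuron protein. The 10 genes were chosen by name, as transcripts known from other work to be translated in axons: Kpnb1, Ranbp1, Rangap1, Stat3, Creb1, Hmgb1, Lmnb2, Rhoa, Mtor and Impa1. All 10 were measured, by 11 probe sets that carry no other gene's symbol, out of 28187 probe sets tested and 19937 genes with a probe set of their own. No measured value entered the choice of genes, although earlier results of these arrays were known when it was made.

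Each of the 5 microarrays held RNA from an anti-FLAG precipitate of NSC-34 cells, a mouse motor neuron-like line. The FLAG-SMN IP group (3 arrays) came from cells that contain the 3XFLAG-flSMN construct, a FLAG-tagged full-length SMN, and the control IP group (2 arrays) from NSC-34 cells without a FLAG construct. Cells of both groups were differentiated in 1% serum, given doxycycline at 3 µg/ml for 3 days, exposed to ultraviolet light (400 mJ/cm2) and precipitated with anti-FLAG M2 magnetic beads, so the control IP gives the background of the beads. Whether the tagged line is 1 clone, and whether replicates were separate cultures, is not given in the sources used here. If the replicates were not separate cultures, p-values measure only technical spread. RNA of the lysates was not analysed here, so a different share of an mRNA bound, a different level of it in the cells and a different share of cells that hold it cannot be told apart.

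Axons lie far from the nucleus, and some of their proteins are made on site from localized mRNAs. Importin beta 1, encoded by Kpnb1, is the carrier that takes cargo with a nuclear localization signal through nuclear pores. In injured peripheral axons locally made importin beta 1 joins importin alpha and the motor dynein, and the complex moves injury signals back to the cell body, under the control of the GTPase Ran and its binding proteins RanBP1 and RanGAP1. The transcription factors STAT3 and CREB1 are among the cargoes or local products of this route. SMN is known for assembling spliceosomal small nuclear ribonucleoproteins, and it is also found in axonal granules with RNA-binding proteins, which is why mRNAs of axons are of interest in its precipitates.

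No gene of the 10 differed between the FLAG-SMN IP and control IP arrays past the test. The log2 differences, FLAG-SMN IP minus control IP, ran from -0.52 at Mtor to 0.62 at Lmnb2, and the smallest adjusted p was 0.424 (limma, Benjamini-Hochberg over all 28187 probe sets). Among all tested probe sets, 0.0319% were called at an adjusted p under 0.05, and a count of 0 in 11 does not stand apart from that background. An unadjusted p under 0.05 was reached by 3 member probe sets: Lmnb2 higher, in a direction where 4.14% of all tested probe sets met that limit, and Mtor and 1 probe set of Rhoa lower, where 6.31% did. The groups did not overlap at 4 member probe sets, 1 higher and 3 lower, against a background of 25.3% of all tested probe sets (12.1% higher and 13.2% lower). The median difference over the 11 was -0.24, beside 0.018 over all tested probe sets. With 1 array left out it ran from -0.34 (without FLAG-SMN IP replicate 3) to -0.096 (without FLAG-SMN IP replicate 1). It was -0.24 without control IP replicate 1, -0.14 without control IP replicate 2 and -0.094 with array weights.

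**Figure D1:**
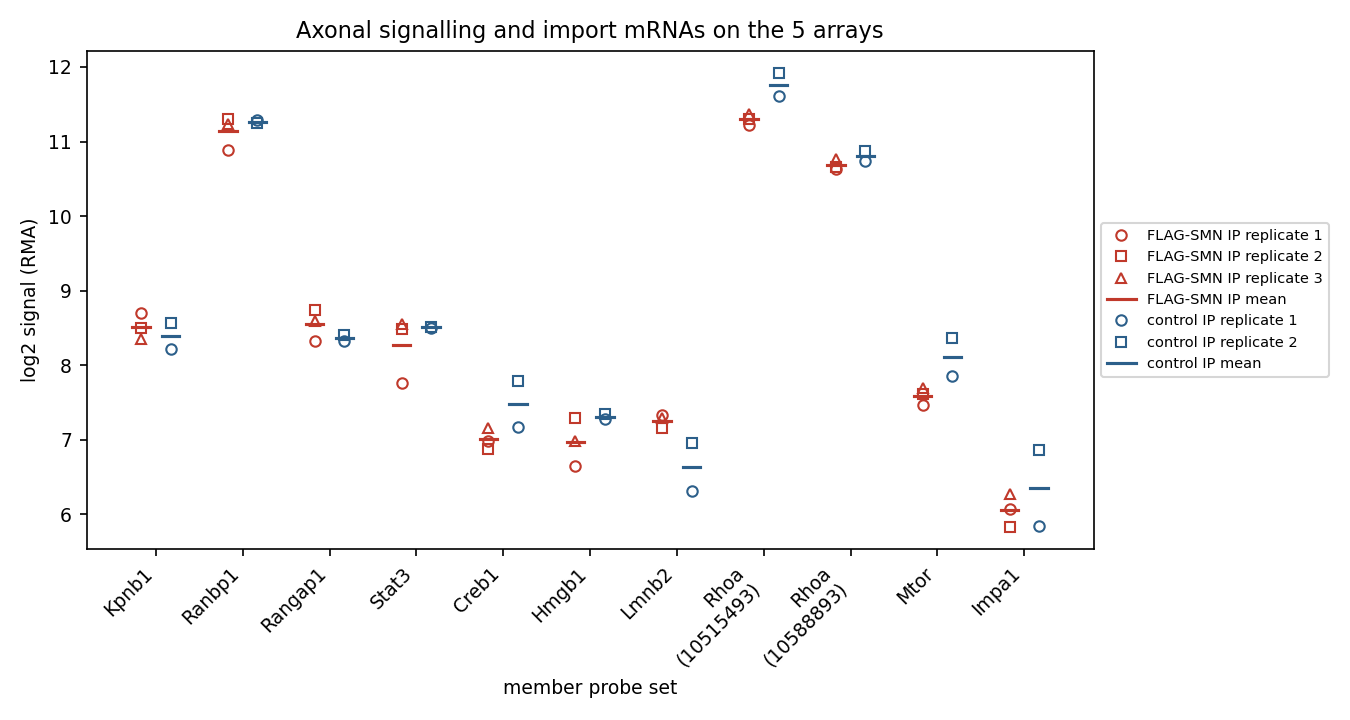
Deposited log2 signal (RMA, y axis) of the 11 member probe sets (x axis) on the 5 arrays, with the 3 FLAG-SMN IP arrays to the left of the 2 control IP arrays in each column and a bar at each group mean. All arrays of the groups are apart at Creb1, Lmnb2, Mtor and 1 Rhoa probe set, and control IP replicate 2 is the highest array at Impa1, with 6.87.

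The import carrier and the regulators of Ran showed small differences in both directions. Kpnb1 read 8.70, 8.50 and 8.35 in FLAG-SMN IP, against 8.22 and 8.56 in control IP, on the log2 scale. The FLAG-SMN IP values straddled control IP replicate 2, and the means were 8.52 ± 0.18 (SD, n = 3) and 8.39 ± 0.24 (SD, n = 2). The difference of 0.13 (SE 0.21; limma adjusted p = 0.945) was smaller than the gap of 0.34 between the control IP arrays.

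Ranbp1, whose protein binds Ran-GTP and helps to release import complexes, read 10.88, 11.30 and 11.24 in FLAG-SMN IP, against 11.28 and 11.25 in control IP. FLAG-SMN IP replicate 1 was the low array, and replicate 2 lay above both control IP arrays. The difference was -0.13 (95% confidence interval -0.60 to 0.35; limma adjusted p = 0.945). Without FLAG-SMN IP replicate 1 it was 0.0039.

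Rangap1, which encodes the protein that activates GTP hydrolysis by Ran, read 8.33, 8.74 and 8.59 in FLAG-SMN IP and 8.33 and 8.40 in control IP. Replicates 2 and 3 of FLAG-SMN IP were above both control IP arrays, and replicate 1 was just below them. The difference was 0.19 (95% confidence interval -0.28 to 0.66; limma adjusted p = 0.883), and it stayed positive, from 0.094 to 0.30, with each array left out in turn.

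The partners of these genes gave no calls. Of 23 importin and exportin genes, all measured, 0 passed the adjusted test, where 0.0301% of all genes did. With an unadjusted p under 0.05, 0 were higher and 1 was lower, where 3.25% and 7.21% of all genes met that limit. That gene was Ipo13, an importin family carrier that works in both directions (-0.64, SE 0.20, limma adjusted p = 0.314). Next by p was the import carrier Ipo5, with 0.56 (SE 0.27, limma adjusted p = 0.56), and the list's median was -0.063 beside 0.0019 over all genes. Ran itself, added here after its value was seen, had a difference of 0.083 (SE 0.20, limma adjusted p = 0.975).

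Other genes of the Ran cycle and of the nuclear pore showed 0 calls among 10 measured of 13. An unadjusted p under 0.05 was found for 0 higher and 2 lower genes, beside 3.25% and 7.21% of all genes. Ranbp2, the large pore protein that holds SUMO-modified RanGAP1 at the cytoplasmic face, gave -0.83 (SE 0.19, limma adjusted p = 0.209). Nup153, a protein of the nuclear basket, gave -1.03 (SE 0.26, limma adjusted p = 0.231). Its values were 7.80, 7.72 and 8.03 in FLAG-SMN IP, against 8.52 and 9.24 in control IP, and Ranbp2 likewise kept the groups apart. The list's median was -0.20, with 8 of the 10 differences negative, but it was 0.0020 without control IP replicate 2 and -0.48 without control IP replicate 1.

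The transcription factor mRNAs had negative differences, none past the test. Stat3, which transmits cytokine and injury signals, read 7.76, 8.49 and 8.55 in FLAG-SMN IP, against 8.50 and 8.51 in control IP. The control IP arrays were 0.009 apart, and the whole difference of -0.24 (SE 0.27; limma adjusted p = 0.902) came with FLAG-SMN IP replicate 1, which lay 0.76 below the mean of replicates 2 and 3 (difference -0.76). Without that array the difference was 0.015. Of 19 measured genes of JAK/STAT signalling among 21 listed, 0 passed. Beside 3.25% and 7.21% of all genes, 0 higher and 1 lower gene had an unadjusted p under 0.05. This was Cntfr, the receptor subunit for ciliary neurotrophic factor (-0.73, SE 0.25, limma adjusted p = 0.361), followed by Pias3, an inhibitor of STAT3, at -0.43 (SE 0.21, limma adjusted p = 0.552). The median of the list was -0.14.

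Creb1, which encodes the cyclic AMP response element binding protein, read 6.98, 6.88 and 7.16 in FLAG-SMN IP, against 7.18 and 7.78 in control IP. The groups did not overlap, but only 0.020 separated the highest FLAG-SMN IP array from the lowest control IP array. The means were 7.01 ± 0.14 (SD, n = 3) and 7.48 ± 0.43 (SD, n = 2), a difference of -0.47 (95% confidence interval -1.03 to 0.085; limma adjusted p = 0.572). Its size rested on control IP replicate 2: the difference was -0.17 without that array and -0.78 without control IP replicate 1 (limma adjusted p = 0.439).

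Coactivators and kinases of the CREB pathway also gave no call. Of 15 measured genes of the CREB list (17 listed), 0 passed the adjusted test. An unadjusted p under 0.05 was found for 1 higher and 4 lower genes, beside 3.25% and 7.21% of all genes. The lower ones were the acetyltransferase genes Ep300 (-1.04, SE 0.27, limma adjusted p = 0.241) and Crebbp (-0.80, SE 0.24, limma adjusted p = 0.311) and the coactivator genes Crtc2 (-1.03, limma adjusted p = 0.314) and Crtc1 (-0.59, limma adjusted p = 0.432). Ep300 read 7.67, 8.39 and 8.43 in FLAG-SMN IP, against 9.17 and 9.23 in control IP. The higher one was Camk4, a calcium-dependent kinase that phosphorylates CREB (0.65, SE 0.17, limma adjusted p = 0.252). The median of the list was -0.25, and it was -0.46 without control IP replicate 1 and -0.14 without control IP replicate 2.

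Hmgb1 encodes a chromatin protein that also acts outside cells as a signal and promotes neurite growth. Most probe sets with its symbol also name other genes. Its own probe set read 6.65, 7.29 and 6.98 in FLAG-SMN IP, against 7.27 and 7.35 in control IP, with FLAG-SMN IP replicate 1 the lowest. The difference was -0.34 (95% confidence interval -0.88 to 0.21; limma adjusted p = 0.753), and it was -0.18 without FLAG-SMN IP replicate 1 and -0.49 without replicate 2. The symbol also stands on 31 probe sets that name other genes as well, and those readings cannot be assigned to 1 gene from the annotation. Of these, 23 had positive and 8 negative differences, from -0.40 to 0.89 with a median of 0.21, and 0 passed (smallest limma adjusted p = 0.467). The brightest of the 31 read 11.51, 11.45 and 11.22 in FLAG-SMN IP, against 11.89 and 11.68 in control IP (difference -0.40, limma adjusted p = 0.555). Of the 31, 1 kept FLAG-SMN IP higher on every array and 3 lower, where 25.3% of all tested probe sets kept the groups apart.

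**Figure D2:**
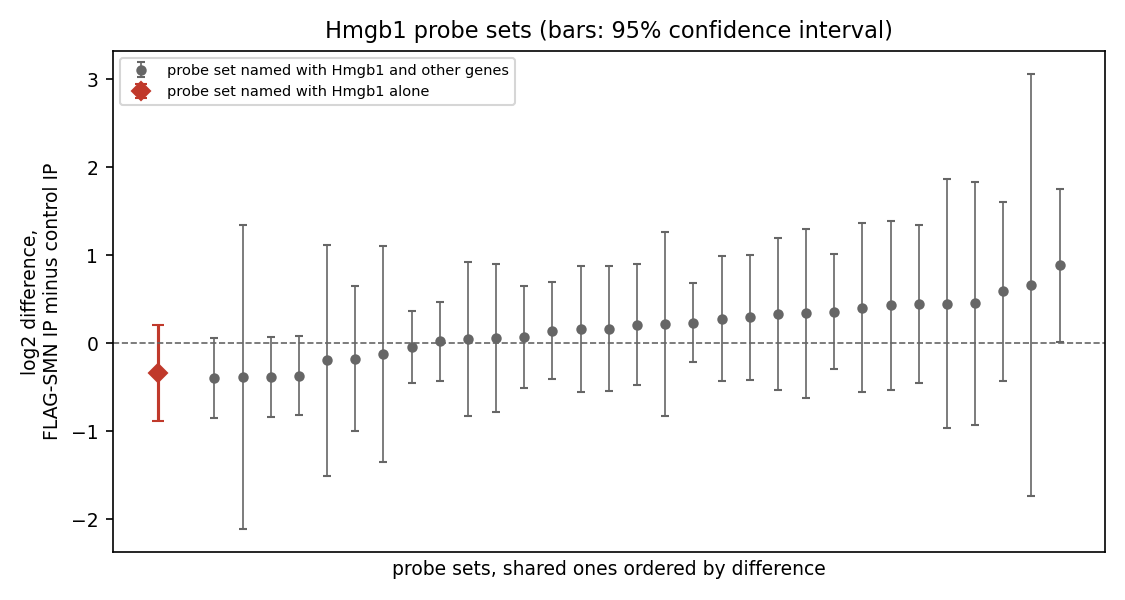
Log2 difference, FLAG-SMN IP minus control IP (y axis), with its 95% confidence interval, for the probe set that names Hmgb1 alone (red diamond, -0.34) and for the 31 that name it with other genes (grey points, ordered by difference along the x axis). The shared probe sets run from -0.40 to 0.89, and the own probe set lies near their low end.

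Relatives of Hmgb1 lay the other way in number. Of 12 measured genes of the HMG list (15 listed, which also holds the HMGB1 receptors Ager and Tlr4), 10 had positive differences and the median was 0.22, with 0.091 without control IP replicate 1 and 0.35 without control IP replicate 2. None passed, and 1 higher and 2 lower genes had an unadjusted p under 0.05, beside 3.25% and 7.21% of all genes. The higher one was Hmg20b, a subunit of a neuronal gene-silencing complex, at 0.72 (SE 0.26, limma adjusted p = 0.383). The lower ones were the nucleosome-binding protein gene Hmgn2 at -0.68 (SE 0.19, limma adjusted p = 0.267) and Tlr4 at -0.69 (limma adjusted p = 0.413). Tlr4 was at 3.82, 4.32 and 4.30 in FLAG-SMN IP, no higher than the presumed control medians of those arrays (4.45, 4.33 and 4.30), so the size of its difference is uncertain. The closest relative, Hmgb2, added after its value was seen, gave 0.29 (SE 0.20, limma adjusted p = 0.762).

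Lmnb2 was the member with the largest positive difference. It encodes lamin B2, a filament protein of the nuclear envelope that in frog axons is made locally and supports mitochondria and axon survival. It read 7.33, 7.15 and 7.29 in FLAG-SMN IP, against 6.32 and 6.96 in control IP. All FLAG-SMN IP arrays were above both control IP arrays, by at least 0.19, and they agreed closely, whereas the control IP arrays were 0.65 apart. The means were 7.26 ± 0.092 (SD, n = 3) and 6.64 ± 0.46 (SD, n = 2), a difference of 0.62 (SE 0.24; 1.54-fold, 95% confidence interval 1.04 to 2.26), with an unadjusted p of 0.0347 and limma adjusted p = 0.424. Of all tested probe sets, 10.5% had a difference at least as far from 0. The difference was 0.94 without control IP replicate 2 and 0.30 without control IP replicate 1.

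The other lamins shared the sign of Lmnb2 without passing: Lmnb1 gave 0.45 (SE 0.27, limma adjusted p = 0.69) and Lmna 0.36 (SE 0.30, limma adjusted p = 0.826), both added after their values were seen. Around them, all 17 listed genes of the lamina and inner nuclear membrane were measured, with 0 past the adjusted test. Beside 3.25% and 7.21% of all genes, 0 higher and 3 lower genes had an unadjusted p under 0.05. These were Lemd3, an inner membrane protein gene (-1.19, SE 0.25, limma adjusted p = 0.184), Zmpste24, the protease that matures lamin A (-1.15, SE 0.29, limma adjusted p = 0.238), and Emd, which encodes emerin (-0.75, SE 0.21, limma adjusted p = 0.279). Without FLAG-SMN IP replicate 1, Lemd3 passed at -1.39 (limma adjusted p = 0.0303), as did Syne2, a linker of nucleus and cytoskeleton, at 1.13 (limma adjusted p = 0.0449). Neither passed when replicate 2 or replicate 3 of FLAG-SMN IP was left out. Of all 28187 tested probe sets, 159 higher and 191 lower passed without replicate 1, and 0 without replicate 2 or replicate 3. The list's median was 0.010 and changed to -0.31 without control IP replicate 1.

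Rhoa encodes a small GTPase that controls actin and growth cone collapse, and its mRNA is translated in axons after repulsive cues. It was measured by 2 probe sets, both with negative differences. The 95% confidence intervals of the differences overlapped, from -0.91 to -0.026 for 10515493 and from -0.54 to 0.29 for 10588893. Probe set 10515493 read 11.22, 11.31 and 11.36 in FLAG-SMN IP, against 11.62 and 11.91 in control IP. All FLAG-SMN IP arrays were below both control IP arrays, by at least 0.25, and the difference was -0.47 (SE 0.19; 1.38-fold lower, 95% confidence interval 1.02 to 1.88), with an unadjusted p of 0.0408 and limma adjusted p = 0.446.

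The other Rhoa probe set, 10588893, read 10.63, 10.66 and 10.76 in FLAG-SMN IP and 10.74 and 10.88 in control IP. Here the groups overlapped, and the difference was -0.12 (SE 0.17; limma adjusted p = 0.931). The annotation gives both probe sets the same 10 transcript accessions, and 10515493 has 1 more. The mean of both gave -0.30 (limma adjusted p = 0.66).

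Genes that act with RhoA were measured for 27 of 30 listed, with 0 past the adjusted test. An unadjusted p under 0.05 was found for 2 higher and 1 lower gene, beside 3.25% and 7.21% of all genes. Limk2, a kinase that phosphorylates cofilin, gave 0.65 (SE 0.18, limma adjusted p = 0.267). Myl9, a myosin light chain gene, gave 1.22 (SE 0.48, limma adjusted p = 0.442), from 5.65, 7.23 and 7.17 in FLAG-SMN IP and 5.32 and 5.62 in control IP. Without FLAG-SMN IP replicate 1, the low array of its group, Myl9 passed at 1.73 (limma adjusted p = 0.0153), and with replicate 2 or 3 left out it did not. Without replicate 1, 159 higher and 191 lower of all 28187 tested probe sets passed, and with replicate 2 or 3 left out 0 did. Arhgap35, which encodes a GTPase-activating protein, gave -0.86 (SE 0.28, limma adjusted p = 0.347). The list's median was -0.13.

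Mtor had the largest negative difference of the members. It encodes the kinase that matches protein synthesis to growth signals, and in injured nerve its own mRNA is translated in the axon and raises local translation. It read 7.46, 7.61 and 7.69 in FLAG-SMN IP, against 7.85 and 8.36 in control IP. Every FLAG-SMN IP array was below both control IP arrays, by at least 0.16, while the control IP arrays were 0.51 apart. The means were 7.59 ± 0.12 (SD, n = 3) and 8.11 ± 0.36 (SD, n = 2), a difference of -0.52 (SE 0.22; 1.43-fold lower, 95% confidence interval 1.00 to 2.05), with an unadjusted p of 0.0498 and limma adjusted p = 0.478. Of all tested probe sets, 14.7% had a difference at least as far from 0. The value was -0.26 without control IP replicate 2 and -0.77 without control IP replicate 1.

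Among 30 measured genes of the mTOR complexes and their regulators (31 listed), 0 passed. An unadjusted p under 0.05 was found for 1 higher and 1 lower gene, beside 3.25% and 7.21% of all genes. The lower one was Rictor, the defining subunit of mTOR complex 2 (-0.56, SE 0.18, limma adjusted p = 0.338), at 7.55, 7.46 and 7.53 in FLAG-SMN IP, against 7.93 and 8.22 in control IP. The higher one was Akt1, a kinase upstream of mTOR complex 1 and a substrate of mTOR complex 2 (0.46, SE 0.19, limma adjusted p = 0.462). Rptor, the matching subunit of complex 1, added after its value was seen, gave -0.26 (limma adjusted p = 0.852). The list had 9 positive and 21 negative differences and a median of -0.16.

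Impa1 encodes inositol monophosphatase 1, which recycles inositol and is inhibited by lithium. Its mRNA is carried into sympathetic axons in rat neurons and supports their survival. It had the lowest signal margin and the widest spread of the members, at 6.07, 5.83 and 6.27 in FLAG-SMN IP and 5.85 and 6.87 in control IP. The control IP arrays enclosed the FLAG-SMN IP arrays but for replicate 2, and were themselves 1.02 apart. The difference was -0.30 (SE 0.32; 95% confidence interval -1.07 to 0.46; limma adjusted p = 0.886), -0.81 without control IP replicate 1 and 0.21 without control IP replicate 2. Other genes of inositol phosphate recycling were measured for 16 of 20 listed, with 0 past the test. Beside 3.25% and 7.21% of all genes, 0 higher and 1 lower gene had an unadjusted p under 0.05. That was Cds2, which makes the lipid precursor of phosphatidylinositol (-0.83, SE 0.19, limma adjusted p = 0.202), and the next was Cdipt, the phosphatidylinositol synthase gene (-0.41, SE 0.19, limma adjusted p = 0.535). The median was -0.090.

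**Figure D3:**
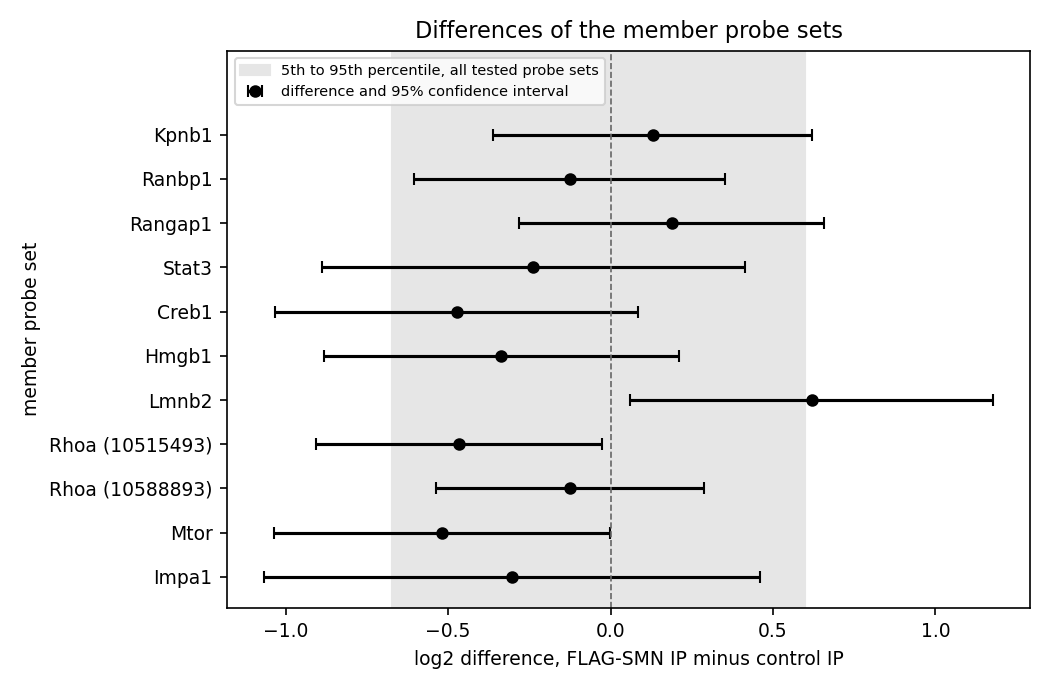
Log2 difference, FLAG-SMN IP minus control IP (x axis), of each member probe set (y axis) with the 95% confidence interval of the moderated fit, over a grey band from the 5th to the 95th percentile of all tested probe sets (-0.67 to 0.60). At 8 of 11 the interval holds 0, and the point estimate of Lmnb2, 0.62, is the only one beyond the band.

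The intervals limit how large a difference these arrays leave room for. At 7 of the 11 member probe sets the 95% confidence interval lay within a 2-fold change in either direction, and the farthest bound at the others was 2.26-fold, at Lmnb2. These intervals cover the spread between arrays only. A p that misses the threshold does not show that an mRNA was equally abundant in the precipitates.

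The dynein route that carries importin complexes to the cell body was covered by 24 measured genes of 27 listed, which include the injury-signalling genes. None passed, and 2 higher and 2 lower genes had an unadjusted p under 0.05, beside 3.25% and 7.21% of all genes. Nde1, a dynein regulator, gave 0.74 (SE 0.28, limma adjusted p = 0.423), and Vim, the vimentin gene whose protein links kinases to importins in injured nerve, gave 0.67 (SE 0.27, limma adjusted p = 0.467). Mapk8, which encodes the stress kinase JNK1, gave -0.84 (SE 0.25, limma adjusted p = 0.29), and Dync1li1, a light intermediate chain of dynein, gave -0.51 (SE 0.20, limma adjusted p = 0.426). Over the list, the groups did not overlap at 3 higher and 7 lower genes of the 24. Of all genes, 25.8% kept the groups apart. Among the lists of partners, by share, such counts ran from 0 higher and 2 lower of 19 (JAK/STAT list) to 2 higher and 5 lower of 15 (CREB list). The median of the dynein list was -0.14.

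Over the 10 lists of partners together, 193 of 214 listed genes had a probe set of their own, and 0 passed the adjusted test, the smallest limma adjusted p being 0.184. An unadjusted p under 0.05 was found for 7 higher (3.63%) and 18 lower genes (9.33%), beside 3.25% and 7.21% over all genes. List medians were negative in 8 lists and positive in 2. These lists were drawn up with earlier results of these data known, and the counts describe them without a test.

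**Figure D4:**
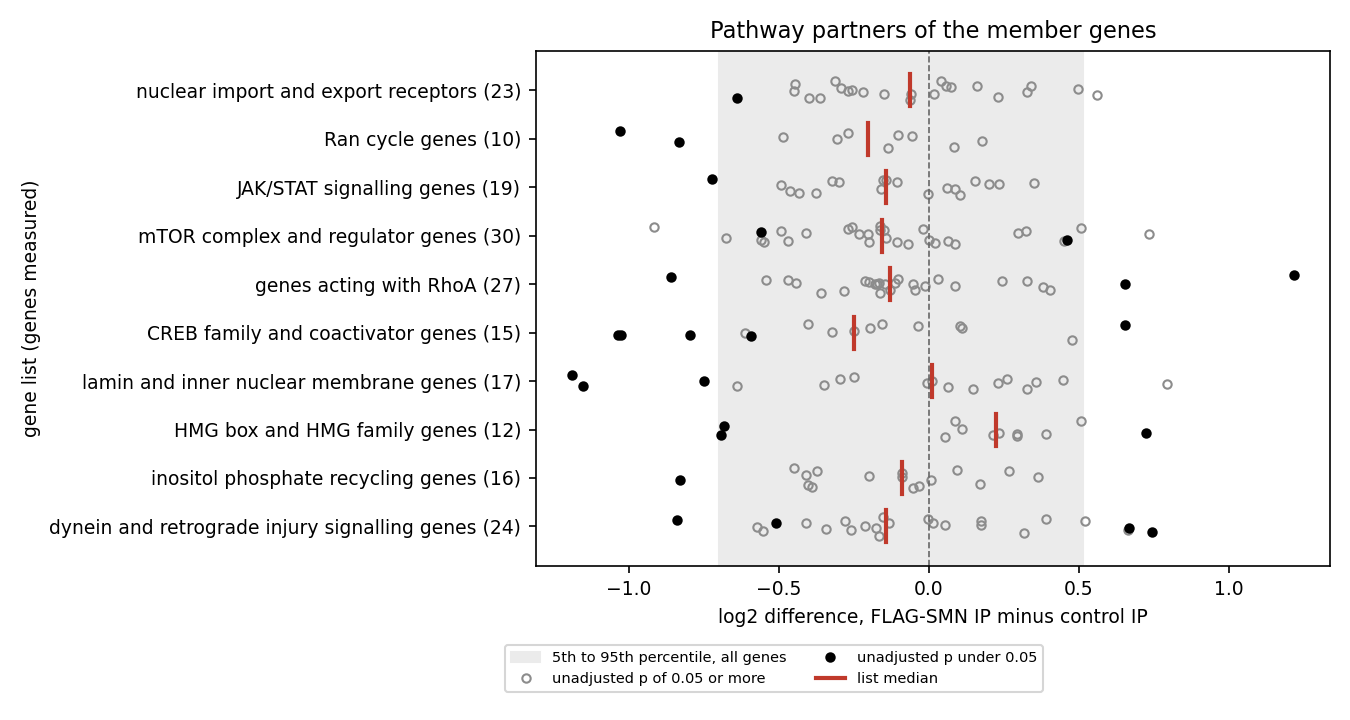
Log2 difference, FLAG-SMN IP minus control IP (x axis), of each measured gene in the 10 lists of partners (y axis, with the number measured), filled where the unadjusted p was under 0.05, with list medians in red and a grey band from the 5th to the 95th percentile of all genes (-0.70 to 0.51). List medians run from -0.25 to 0.22.

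Single arrays stood out across the members. Control IP replicate 2 was above control IP replicate 1 at 10 of 11 member probe sets, with a median gap of 0.30, whereas over all tested probe sets it was above at 43.1% and the median gap was -0.068. The exception was Ranbp1, where the control IP arrays were 0.032 apart. At 5 of the 11 the difference between groups was smaller than the gap between the control IP arrays, where 61.5% of all tested probe sets showed this: Kpnb1, Creb1, Lmnb2, 1 probe set of Rhoa (10588893) and Impa1. FLAG-SMN IP replicate 1 was the lowest of its group at 7 of 11, where it was lowest at 36.8% of all tested probe sets. The part of these arrays in the members' differences beyond the values with each left out was not tested.

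**Figure D5:**
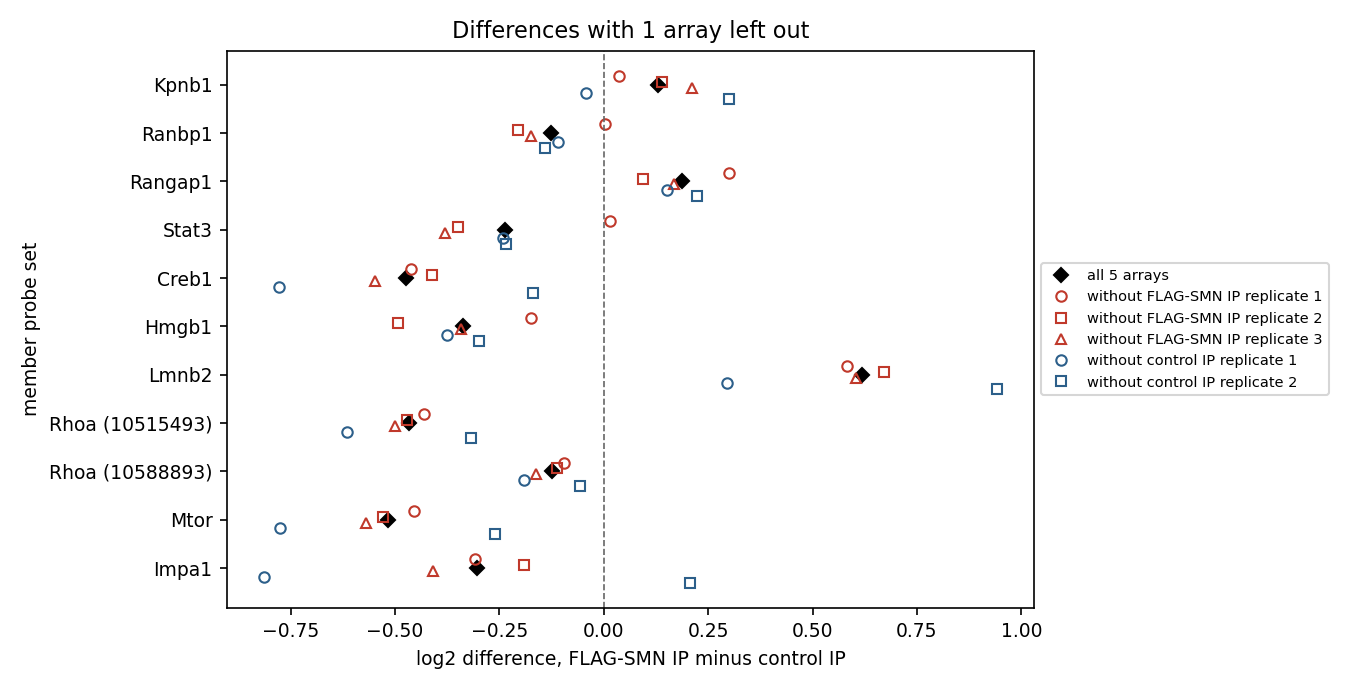
Log2 difference, FLAG-SMN IP minus control IP (x axis), of each member probe set (y axis) over all 5 arrays (black diamonds) and with 1 array left out (open symbols). Creb1, Lmnb2, Mtor and Impa1 move most with the control IP arrays, and Stat3 with FLAG-SMN IP replicate 1.

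Genes with profiles most like those of a pair of members were listed by the smallest root mean square difference of centred log2 values over the 5 arrays, among 10782 other genes above the median signal. For Lmnb2, the member of smallest p, these were Cenpk (0.045), Vps8 (0.054) and Dnajc3 (0.055), whose differences between groups were 0.64, 0.62 and 0.59. For Impa1, the member with the widest range over the arrays, these were Ano6 (0.053), Trappc2 (0.057) and Lpar6 (0.060), with differences of -0.37, -0.23 and -0.40. With 5 arrays such likeness is a description of these arrays. Genes picked by likeness on the same arrays have like differences between groups by the rule, so those differences are not a separate result.

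Facts of the whole series that touch these values are few. Array medians lay between 5.25 and 5.39 over the tested probe sets. FLAG-SMN IP replicate 1 correlated with replicates 2 and 3 at r = 0.964 and 0.968, below the r = 0.989 between those, across probe sets, which are not independent replicates. All 11 member probe sets were above the median of the presumed control probe sets on every array, by at least 1.36. The RNA of Smn1, the gene of the precipitated protein, had a difference of 1.74 (limma adjusted p = 0.0877). Whether its probe set reads the construct is not given in the sources used here. These arrays read RNA, so this value does not show how much SMN protein was precipitated.

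No marker of the cell line passed the adjusted test. The median difference was -0.24 over the neuronal and motor neuron markers and -1.88 over the noradrenergic neuroblastoma markers (smallest limma adjusted p = 0.0957). Of 14 neuronal and motor neuron markers, all measured, 0 higher and 4 lower had an unadjusted p under 0.05, where 3.25% of all genes were higher and 7.21% lower by that limit. Their summed linear signal ran from 728 to 1610 in FLAG-SMN IP and from 1637 to 1901 in control IP. The choline acetyltransferase gene Chat was near the presumed control medians (4.53, 4.69 and 4.40 in FLAG-SMN IP, and 4.61 and 4.28 in control IP), and Mnx1 and Slc5a7 lay below them on all arrays. Of 7 measured noradrenergic neuroblastoma markers (8 listed), 1 was higher and 4 were lower by the same limit, beside the same 3.25% and 7.21%, with sums of 1908 to 3445 in FLAG-SMN IP and 4592 to 4757 in control IP. Of the astrocyte, oligodendrocyte, microglia and fibroblast markers, 0 met that limit in either direction (6, 5, 6 and 6 measured), and their summed signals overlapped between the groups. The part of the neuronal markers' levels in the members' differences was not tested.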

How the data were processed

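The deposited table holds log2 signals, 1 column per array. The submitters' processing notes name RMA, which corrects background, quantile-normalizes arrays and summarises probes, and give no version, settings or build. The values ran from 1.28 to 14.15, which gave the log2 scale, and 0 were missing. RMA forces arrays toward a common distribution, so a general difference in RNA recovered is not visible. Sequencing depth does not apply, and the number of arrays limits the precision.

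Groups came from sample titles. Of 34760 rows, 6573 were left out as presumed controls, because their IDs lie below the lowest annotated ID. Of the 28187 tested, 21640 carried 1 symbol, 1321 several and 5226 none, and only those with 1 were named. By gene ID, 21553 matched the mouse RefSeq table (GRCm38.p6), with 0 changed symbols. The fit was limma 3.58.1 in R 4.3.3 (lmFit, eBayes, 2-sided, no block; 3 residual and 3.8 prior degrees of freedom), adjusted over all tested probe sets at 0.05, and it was tested on simulated data. Lists used the brightest probe set of each gene. List genes named are the 2 of smallest p and every gene with an unadjusted p under 0.05. Members and lists were chosen with earlier results of these data known. Figures used matplotlib 3.10.9 in Python 3.11.15.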

Additional observations from a re-analysis of the deposited data

How the results depend on the processing

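Member calls did not change: over 14 alternatives, 0 member probe sets passed at an adjusted p under 0.05 in limma, the lowest being 0.296 for Lmnb2. Of 152 member values, 148 kept their direction and their side of the threshold. The exceptions were Ranbp1 (0.0039) and Stat3 (0.015) without FLAG-SMN IP replicate 1, Kpnb1 (-0.042) without control IP replicate 1 and Impa1 (0.21) without control IP replicate 2. With each array left out in turn, differences ran from -0.21 to 0.0039 for Ranbp1, from -0.38 to 0.015 for Stat3, from -0.042 to 0.30 for Kpnb1 and from -0.81 to 0.21 for Impa1.

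Counts were less steady. Over all tested probe sets, 4 higher and 5 lower passed. Cyclic loess, all rows of the table and the replicate block each left 0 and 0. Centring on brighter probe sets gave 16 and 25, array weights 26 and 60, and robust moderation 3 lower. Gene means, which count genes (19937) and not probe sets, gave 10 and 44. Leaving out single arrays gave 0 to 159 higher and 0 to 191 lower. Member probe sets at an unadjusted p under 0.05 were 1 higher and 2 lower. They were 0 and 0 with trend, with brighter probe sets only and with the replicate block, and 0 lower with centring and with all rows. They were 1 lower with robust moderation, array weights and gene means (counted by gene). With single arrays left out they were 0 to 1 higher and 0 to 4 lower. Partner genes were 7 higher and 18 lower. Cyclic loess gave 11 higher, all rows 4 and the replicate block 3. Leaving out single arrays gave 2 to 9 higher and 8 to 24 lower, with 0 to 3 past the adjusted test.

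Replicate numbers were shared by 2 pairs of arrays, whose deviations from their group means correlated at 0.13 and -0.20. The largest such value, 0.42, was between FLAG-SMN IP replicate 3 and control IP replicate 2. The deviations of 2 control IP arrays mirror each other, so these values cannot show whether the numbers pair the samples. The replicate block gave Lmnb2 0.60, Mtor -0.57 and Stat3 -0.38. List medians moved by more than the members' within-group SD of 0.23 in 3 of 140 cases, all without control IP replicate 1: nuclear import and export receptors (-0.31), Ran cycle genes (-0.48) and lamina genes (-0.31). The cause of these shifts was not tested.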
